A study of Mus musculus with 5 samples.

Results

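The Ms4a genes encode small proteins that cross the membrane repeatedly and sit at the surface of blood cells. The account here covers 8 of them, chosen by symbol: Ms4a1, Ms4a4a, Ms4a4b, Ms4a4c, Ms4a6b, Ms4a6c, Ms4a6d and Ms4a7. They are 8 of the 19726 gene symbols listed in each library, and 8 of the 19 Ms4a symbols among these. The RNA was that of CD4+ T cells. They came from MC38 tumors in 2 libraries (tumor replicates 2 and 3) and from spleens in 3 libraries (spleen replicates 1, 2 and 3), in mice that were all 7 weeks old, wild-type and of the C57/Bl6j strain. MC38 cells derive from a mouse colon carcinoma and grow as tumors in such mice, and the study addressed gene expression and splicing of the T cells in the tumor. Total RNA from 300000 cells per sample was depleted of ribosomal RNA and sequenced as stranded, paired reads of 75 bp. The labels state neither how the cells were purified nor whether each replicate was a mouse of its own. A p-value therefore rests on the spread between these libraries alone, pooled largely over genes, and that spread may be technical.

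Ms4a genes are best known through Ms4a1, which encodes CD20, the B cell surface protein that takes part in calcium entry and is the target of therapeutic antibodies. Other members divide the blood lineages among them. In mice, Ms4a4b and Ms4a6b are known from T cells, and MS4A4B binds the costimulatory receptor GITR and modulates T cell proliferation. Ms4a4a, Ms4a6c, Ms4a6d and Ms4a7 are known from macrophages and monocytes, where MS4A4A is a surface protein of alternatively activated macrophages. Ms4a4c, a close relative of Ms4a4b, has been reported from both kinds of cell, and it was grouped here with Ms4a1, Ms4a4b and Ms4a6b as lymphoid. That gave 4 lymphoid and 4 myeloid members.

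The levels below are TPM, a share of all transcripts that is corrected for transcript length and so can be compared between genes. The listed genes held 59.6% and 56.9% of all TPM in the tumor libraries and 26.9% to 36.0% in the spleen libraries, and TPM keep no read depth. The olfactory receptor genes, which belong to sensory neurons, served as background, and their 95th percentile was 7.59 and 10.7 TPM in tumor and 10.6 to 16.2 TPM in spleen libraries. The label of CD4+ T cells was checked against 12 genes of T cell identity. All 12 were listed and fell in tumor as deposited, with a median log2 change of -2.07, while scaling on these genes, which levels them by construction, left 3 that rose and 4 that fell. Their sum was 318 and 249 TPM in tumor, against 996, 1318 and 1086 TPM in spleen. Cd4 stood at 26.8 and 27.2 TPM in tumor and at 97.7, 130.7 and 116 TPM in spleen. Markers of macrophages and monocytes were also high in tumor: all 16 rose, also under each of the 17 alternatives, and their sum was 6319 and 6813 TPM in tumor against 33.0, 36.9 and 38.8 TPM in spleen. Among all tested genes, 40.9% rose and 18.1% fell as deposited. None of the 16 was at 0 in any library, and Ctsb, a lysosomal protease of many cell types, made up most of the spleen sum, at 19.1, 22.3 and 25.4 TPM. Apart from Ctsb, all lay below the background in every spleen library. Many of the 16 reached the mean of 1 TPM needed for testing only through tumor. The tumor libraries thus held transcripts at high levels that their label does not name. In bulk samples, fewer cells of a type and less RNA per cell cannot be told apart.

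All 8 members lie in 1 cluster on chromosome 19 (GRCm38, from GENCODE M21), which holds the 19 listed Ms4a genes between positions 10962293 and 11640851. On the plus strand follow each other Ms4a4a (11375523 to 11392790), Ms4a4c (11404770 to 11427246), Ms4a4b (11443553 to 11467055), Ms4a6c (11469366 to 11482192) and Ms4a6b (11516512 to 11531256). On the minus strand lie Ms4a1 (11249675 to 11266241) and Ms4a7 (11321039 to 11336146) before them and Ms4a6d (11586604 to 11604849) after them. The gap between Ms4a4c and Ms4a4b is 16.3 kb, and that between Ms4a4b and Ms4a6c is 2.31 kb. Ms4a4b and Ms4a4c are near copies, with 91.8% identity over coding sequences of 681 bases each. Ms4a6b and Ms4a6c, with 735 and 654 coding bases, were identical at 85.3% of paired bases, Ms4a6b and Ms4a6d at 81.3%, and Ms4a6c and Ms4a6d at 79.1%. Over all aligned columns, gaps included, the order among these 3 differed: 73.9% for Ms4a6b and Ms4a6c, 79.9% for Ms4a6b and Ms4a6d, and 67.0% for Ms4a6c and Ms4a6d.

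The sequences before the starts of Ms4a4b and Ms4a4c, and of Ms4a6b and Ms4a6c, are shown because these 2 pairs are related genes, share the most 31-base words of their transcripts among the members, and differ in level in the libraries described below. They are the 250 bases before the RefSeq start of each gene (GRCm38.p6), on the plus strand and written 5′ to 3′, and capitals mark runs of at least 12 bases that also occur in the other gene of the pair. A RefSeq promoter entry was matched for 6 of the 8 members. Ms4a4b is at chr19:11443308-11443557, Ms4a4c at chr19:11407411-11407660, Ms4a6b at chr19:11518309-11518558 and Ms4a6c at chr19:11469118-11469367. The windows of Ms4a4c and Ms4a6b lie inside the GENCODE spans given above, which start earlier, at 11404770 and 11516512.
Ms4a4b: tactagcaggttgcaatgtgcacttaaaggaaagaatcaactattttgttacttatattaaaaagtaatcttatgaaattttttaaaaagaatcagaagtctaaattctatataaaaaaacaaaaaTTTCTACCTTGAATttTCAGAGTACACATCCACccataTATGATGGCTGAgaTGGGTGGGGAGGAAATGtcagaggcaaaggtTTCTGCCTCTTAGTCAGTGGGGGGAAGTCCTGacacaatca
Ms4a4c: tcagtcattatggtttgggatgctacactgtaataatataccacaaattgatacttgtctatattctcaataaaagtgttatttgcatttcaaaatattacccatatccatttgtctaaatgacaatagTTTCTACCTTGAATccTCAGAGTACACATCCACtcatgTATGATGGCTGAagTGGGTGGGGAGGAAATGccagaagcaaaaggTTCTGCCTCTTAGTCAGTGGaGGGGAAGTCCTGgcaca
Ms4a6b: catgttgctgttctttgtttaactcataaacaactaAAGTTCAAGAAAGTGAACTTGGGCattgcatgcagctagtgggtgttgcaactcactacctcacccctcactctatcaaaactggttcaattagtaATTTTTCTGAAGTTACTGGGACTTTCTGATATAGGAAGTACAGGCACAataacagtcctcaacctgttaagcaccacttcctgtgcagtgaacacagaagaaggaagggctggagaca
Ms4a6c: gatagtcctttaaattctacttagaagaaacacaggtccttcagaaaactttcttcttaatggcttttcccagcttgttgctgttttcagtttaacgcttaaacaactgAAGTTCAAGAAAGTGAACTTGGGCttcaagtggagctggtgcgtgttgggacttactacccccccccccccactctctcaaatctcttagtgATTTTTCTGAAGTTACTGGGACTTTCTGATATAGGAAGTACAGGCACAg

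Upstream of Ms4a4b and Ms4a4c, 92 of the 250 bases lay in such shared runs, the longest of 20 bases, and the best local alignment of 212 columns was 75.5% identical. The last capital stretch of Ms4a4b is longer because it joins 2 abutting runs, of 20 and 12 bases, which 1 base separates in Ms4a4c. Upstream of Ms4a6b and Ms4a6c, 72 bases lay in shared runs, the longest of 48 bases, and the local alignment of 180 columns was 82.2% identical. In that pair the shared stretch ends 71 bases before the RefSeq start of Ms4a6b and 2 bases before that of Ms4a6c.

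Of the 8 members, 6 rose in tumor, 1 fell and 1 was not called, by limma across 12979 genes at an adjusted p below 0.05. All 8 passed the filter of a mean of at least 1 TPM, Ms4a4a only through its level in tumor. Among all tested genes 40.9% rose and 18.1% fell, 59.0% in all. The median log2 change was 4.62 over the members and 0.23 over all tested genes, on the scale of log2(TPM + 1) used for every fold change given as log2 below. The libraries of the 2 tissues did not overlap for 7 of the members, against 70.4% of all tested genes. Tumor libraries were all above the spleen libraries for 6 members (46.6% of all tested genes) and all below them for 1 (23.8%). The myeloid members rose in 4 of 4 cases, with a median log2 change of 5.86. The lymphoid members rose in 2 cases, fell in 1 and were not called in 1, with a median of 0.41. Over the 17 alternatives 5 to 8 members rose and 0 to 2 fell.

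Ms4a4b and Ms4a6b were the leading members in spleen, at nearly the same level. Ms4a4b stood at 133 and 101 TPM in tumor replicates 2 and 3, against 258, 451 and 302 TPM in spleen replicates 1, 2 and 3. Both tumor libraries lay below every spleen library. The mean fell to 117 ± 23.1 TPM in tumor (SD, n = 2), against 337 ± 101 TPM in spleen (SD, n = 3), and the log2 change was -1.49 ± 0.22 (SE) at a limma adjusted p of 7.34e-08. When the libraries were scaled on the T cell identity genes the sign turned, to 0.63 (limma adjusted p = 0.00642), and in a test against a 2-fold change the fall was not called (limma adjusted p = 0.0738).

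Ms4a6b did not follow its companion. It stood at 479.9 and 479 TPM in tumor, against 259.7, 445 and 310.4 TPM in spleen, so that the lowest tumor library was above the highest spleen library by a factor of 1.08. The means were 479 ± 0.71 TPM in tumor (SD, n = 2) and 338 ± 95.8 TPM in spleen (SD, n = 3), and the log2 change of 0.54 ± 0.21 passed the threshold (SE; limma adjusted p = 0.0265). The call was lost, or the sign turned, in 11 of 17 alternatives. It was lost without tumor replicate 2 (adjusted p = 0.161), tumor replicate 3 (0.142), spleen replicate 1 (0.0705) or spleen replicate 3 (0.153), and by median ratios (0.136), in limma's test. With equal totals the change was -0.39 (limma adjusted p = 0.0238), and on the upper quartile -0.16 (limma adjusted p = 0.335).

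A ratio of genes within a library does not depend on its scaling. The ratio of Ms4a4b to Ms4a6b was 0.278 and 0.21 in tumor, against 0.993, 1.01 and 0.974 in spleen. In spleen both genes were at the same level to within a few percent, in each library, while their shared level ranged widely. In tumor Ms4a4b was below Ms4a6b in both libraries, a difference of -2.04 in log2 ratio between the tissues, with an SD of 0.285 between tumor and 0.0289 between spleen libraries. Set against the summed T cell identity genes, Ms4a4b stood at 0.419 and 0.404 in tumor and at 0.259, 0.342 and 0.278 in spleen. The same ratio of Ms4a6b was 1.51 and 1.92 in tumor and 0.261, 0.338 and 0.286 in spleen. Both ratios were thus higher in tumor, without overlap, and no test was run on them.

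**Figure D1:**
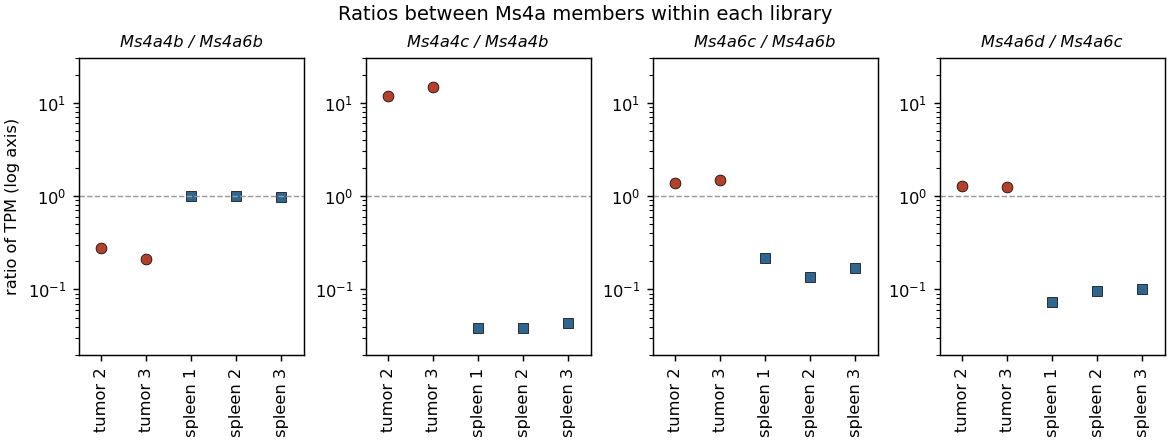
Ratios of TPM between pairs of Ms4a members in each library, on log axes, with 1 point per library (tumor circles, left; spleen squares, right) and a dashed line at 1. The ratio of Ms4a4b to Ms4a6b is near 1 in the spleen libraries and 0.278 and 0.21 in tumor, and the other 3 ratios are higher in both tumor libraries than in any spleen library.

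Ms4a4c, placed with the lymphoid members, had the highest level of the family in tumor and moved as the myeloid members did. It stood at 1575 and 1468 TPM in tumor, against 9.99, 17.6 and 13.2 TPM in spleen. It was the 20th and 26th most abundant of the 19726 listed genes in the tumor libraries, and ranked between 3254 and 4647 in spleen, where it was below the olfactory receptor background in replicates 1 and 3 and above it in replicate 2. The means were 1522 ± 75.6 TPM in tumor (SD, n = 2) and 13.6 ± 3.81 TPM in spleen (SD, n = 3), 112-fold higher in tumor. The log2 change was 6.74 ± 0.22 (SE) at a limma adjusted p of 6.55e-31. Ms4a4c is the near copy of Ms4a4b whose upstream sequence is given above. The ratio of Ms4a4c to Ms4a4b was 11.8 and 14.6 in tumor and 0.0387, 0.039 and 0.0437 in spleen, so that the order of the 2 copies was opposite in the 2 tissues.

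Ms4a1, the B cell gene, stood at 2.20 and 2.35 TPM in tumor and at 2.34, 1.54 and 1.34 TPM in spleen. The groups overlapped and every value was below the olfactory receptor background of its library. Its log2 change was 0.27 ± 0.22 (SE; limma adjusted p = 0.283), and the sign turned under 2 of the scalings, while scaling on T cell identity genes gave a rise of 1.74 (limma adjusted p = 4.97e-06). Of 12 B cell markers 10 were tested, 2 rose and 3 fell, beside 40.9% and 18.1% of all tested genes. The sum of the 12 was 28.1 and 32.7 TPM in tumor and 39.7, 36.1 and 38.5 TPM in spleen. No B cell marker was above the background in any library, Ebf1 and Cd22 being the highest at 7.56 and 7.33 TPM on average in tumor. A B cell contribution was not detectable above this background.

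Ms4a6d had the largest log2 change of the myeloid members on the scale of log2(TPM + 1). This gene, reported in mouse macrophages as a regulator of inflammasome activity, stood at 861 and 889 TPM in tumor, against 4.19, 5.82 and 5.36 TPM in spleen. The means were 875 ± 20.0 TPM in tumor (SD, n = 2) and 5.12 ± 0.84 TPM in spleen (SD, n = 3), 171-fold higher in tumor. The log2 change was 7.17 ± 0.21 (SE) at a limma adjusted p of 1.45e-32. Of the tested genes, 0.401% had a larger log2 change upward.

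Ms4a7, which marks macrophages such as those at the borders of the brain, stood at 265 and 333 TPM in tumor, against 6.36, 3.31 and 5.60 TPM in spleen. Its log2 change was 5.65 ± 0.22 (SE; limma adjusted p = 2.2e-27). Ms4a4a stood at 94.3 and 126.6 TPM in tumor, against 0.727, 0.531 and 0.679 TPM in spleen, and rose by 6.07 ± 0.21 on the log2 scale (SE; limma adjusted p = 1.05e-29). The fold between its means was 171, like that of Ms4a6d, and with a pseudocount of 0.1 TPM the log2 changes were 7.21 for Ms4a4a and 7.40 for Ms4a6d. In spleen, Ms4a6d, Ms4a7 and Ms4a4a were below the olfactory receptor background in every library. For these members the groups were far apart: the lowest tumor library exceeded the highest spleen library 41.6-fold for Ms4a7 and more for the other 2.

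Ms4a6c differed from these in standing above the background in spleen. It stood at 667 and 716 TPM in tumor, against 56.7, 60.1 and 52.8 TPM in spleen, above the background in all 5 libraries. The means were 691 ± 35.1 TPM in tumor (SD, n = 2) and 56.5 ± 3.62 TPM in spleen (SD, n = 3), 12.2-fold higher in tumor. Its rise was 3.59 ± 0.20 on the log2 scale (SE; limma adjusted p = 4.83e-21). Set against the summed macrophage and monocyte genes, Ms4a6c was at 0.105 in both tumor libraries and at 1.72, 1.63 and 1.36 in spleen. The same ratio of Ms4a6d overlapped between the tissues, at 0.136 and 0.13 in tumor and 0.127, 0.158 and 0.138 in spleen, as did that of Ms4a4a, at 0.0149 and 0.0186 in tumor and 0.0221, 0.0144 and 0.0175 in spleen. The ratio of Ms4a4c to that sum was 0.249 and 0.216 in tumor and 0.303, 0.476 and 0.341 in spleen, lower in tumor without overlap, and that of Ms4a7 was lower as well. In spleen the members in these ratios were near or below the background, apart from Ms4a6c. The macrophage and monocyte sum there was mostly Ctsb, at 19.1, 22.3 and 25.4 TPM, and its other genes were below the background. That limits the ratio of Ms4a6c as well. The part of the macrophage genes in the levels of the members was not tested.

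The makeup of the family differed accordingly. Its summed level was 4077 and 4115 TPM in tumor, against 598, 985 and 692 TPM in spleen, a mean 5.40-fold higher in tumor. Ms4a4b and Ms4a6b made up 15.0% and 14.1% of the sum in tumor, against 86.6%, 91.0% and 88.6% in spleen. Ms4a4c, Ms4a6c and Ms4a6d made up 76.1% and 74.7% in tumor, against 11.9%, 8.47% and 10.3% in spleen. The myeloid members summed to 1886 and 2065 TPM in tumor and to 68.0, 69.7 and 64.5 TPM in spleen. The lymphoid members without Ms4a4c summed to 615.5 and 582 TPM in tumor and to 520.1, 898 and 614 TPM in spleen, where the tissues overlapped.

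**Figure D2:**
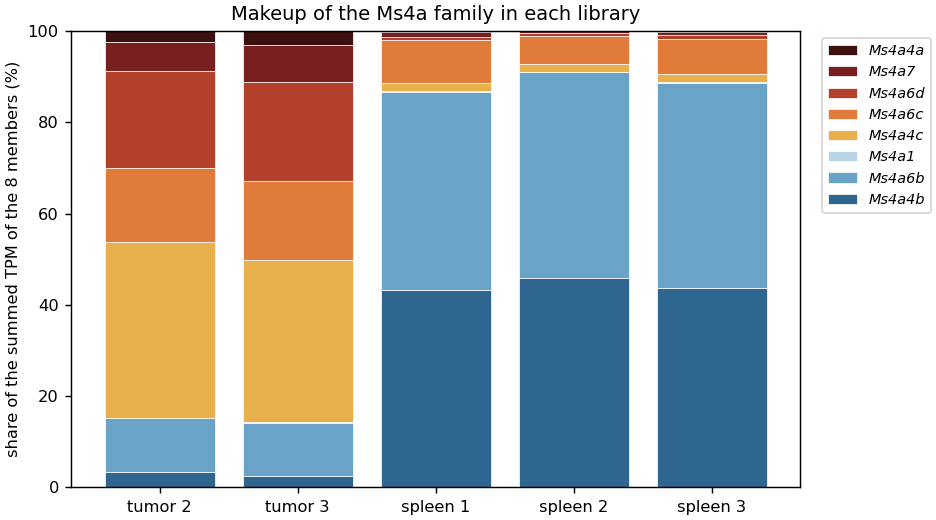
Share of each member in the summed TPM of the 8 Ms4a members, in percent, as stacked bars for the 2 tumor libraries and the 3 spleen libraries. Ms4a4b and Ms4a6b fill 86.6% to 91.0% of the spleen bars and 14.1% to 15.0% of the tumor bars.

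The order of levels was the same in both tumor libraries for the first 5 members: Ms4a4c, Ms4a6d, Ms4a6c, Ms4a6b and Ms4a7, with no overlap between neighbours. Ms4a4b and Ms4a4a followed and overlapped, their order differing between the 2 libraries, and Ms4a1 came last. In spleen, Ms4a6b and Ms4a4b overlapped at the top, with Ms4a6b first in replicates 1 and 3 and Ms4a4b first in replicate 2. Ms4a6c and Ms4a4c came next without overlap, then Ms4a7 and Ms4a6d, which overlapped, then Ms4a1 and at the end Ms4a4a.

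**Figure D3:**
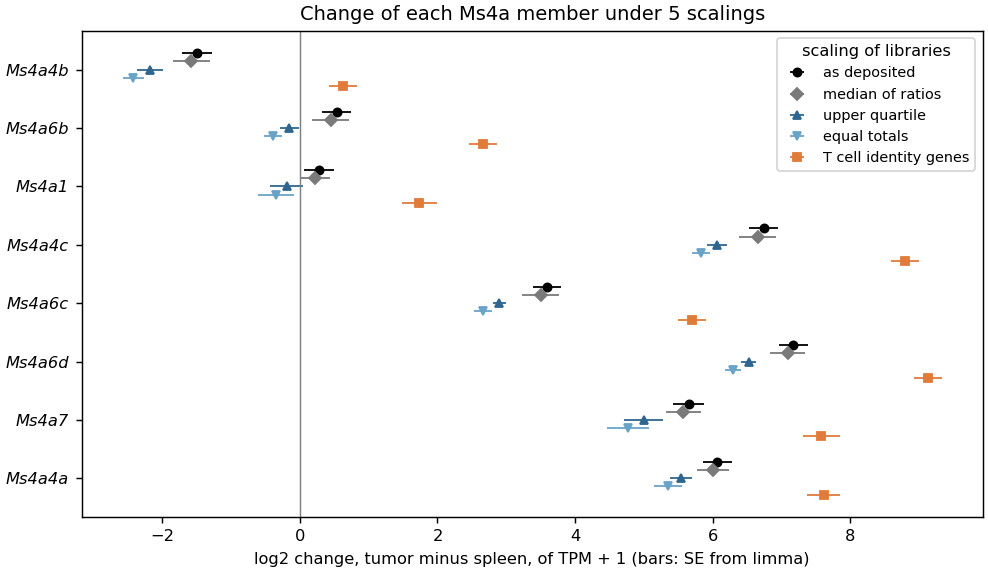
Log2 change of TPM + 1, tumor minus spleen, for each Ms4a member under 5 scalings of the libraries, with the SE from limma as bars (n = 2 tumor and 3 spleen libraries). The points of Ms4a4c, Ms4a6c, Ms4a6d, Ms4a7 and Ms4a4a lie above 0 under all 5, while those of Ms4a4b, Ms4a6b and Ms4a1 lie on both sides.

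Close copies can share reads. Of all 31-base words in the annotated transcripts of Ms4a6c, 21.9% also occur in transcripts of other genes, most often in Ms4a6b, with 281 shared words. The share was 17.1% for Ms4a4c, with 227 words in common with Ms4a4b, and 8.11% for Ms4a6d, 7.84% for Ms4a6b, 5.20% for Ms4a4b, 2.16% for Ms4a1 and 1.22% for Ms4a7. Ms4a4a shared none. The values of Ms4a4b in tumor, where Ms4a4c was 11.8 and 14.6 times as high, are therefore uncertain to an untested extent. So are those of Ms4a6b in tumor, where Ms4a6c and Ms4a6d, with 281 and 83 words in common with it, were higher. The same holds for Ms4a6c in spleen, where Ms4a6b was higher, and for Ms4a4c in spleen. There the ratio of Ms4a4c to Ms4a4b was 0.0387, 0.039 and 0.0437, and the fold of Ms4a4c between the tissues rests on these spleen values. In spleen Ms4a6c ranged from 52.8 to 60.1 TPM while Ms4a6b ranged from 259.7 to 445 TPM. Replicate 2 was highest for both genes, while the lowest value was in replicate 3 for Ms4a6c and in replicate 1 for Ms4a6b.

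Among the 11 other listed Ms4a genes, 6 had a mean of at least 1 TPM, of which 3 rose and 2 fell. That is 50% and 33.3%, beside 40.9% and 18.1% of all tested genes. Ms4a8a stood at 41.5 and 32.7 TPM in tumor, against 1.13, 0.55 and 0.952 TPM in spleen (log2 change 4.35, limma adjusted p = 1.41e-23). Ms4a14 stood at 26.7 and 29.2 TPM in tumor, against 0.766, 0.479 and 0.639 TPM in spleen (log2 change 4.16, limma adjusted p = 3.87e-23). Their spleen means were below the filter, and their level in tumor was above the background there. Ms4a4d rose as well, at 5.52 and 3.15 TPM in tumor and 0.781, 1.08 and 1.15 TPM in spleen, within the background.

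Ms4a2, which encodes the beta chain of the high-affinity IgE receptor of mast cells and basophils, fell by 1.77 on the log2 scale, to 1.08 and 1.11 TPM in tumor against 5.76, 6.92 and 5.76 TPM in spleen (limma adjusted p = 3.64e-10). Ms4a3, known from granulocyte and monocyte progenitors, fell by 0.73 on the log2 scale (limma adjusted p = 0.00334) and was within the background, as was Ms4a2. The fall of Ms4a3 turned to a rise of 0.94 when libraries were scaled on T cell identity genes, where that of Ms4a2 was no longer called (limma adjusted p = 0.277). Ms4a5 was not called (limma adjusted p = 0.617). Ms4a10, Ms4a12, Ms4a13, Ms4a15 and Ms4a18 were below 1 TPM in every library and were not tested. Among 8 markers of mast cells and basophils 3 were tested, 1 rose and 1 fell, beside 40.9% and 18.1% of all tested genes. The rise was that of Hdc, at 51.6 and 50.6 TPM in tumor, above the background, and at 2.53, 2.85 and 3.09 TPM in spleen. The fall was that of Cpa3, which was within the background and passed the filter only through spleen. Fcer1a, the alpha chain of the receptor that Ms4a2 belongs to, was below 1 TPM in every library.

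**Figure D4:**
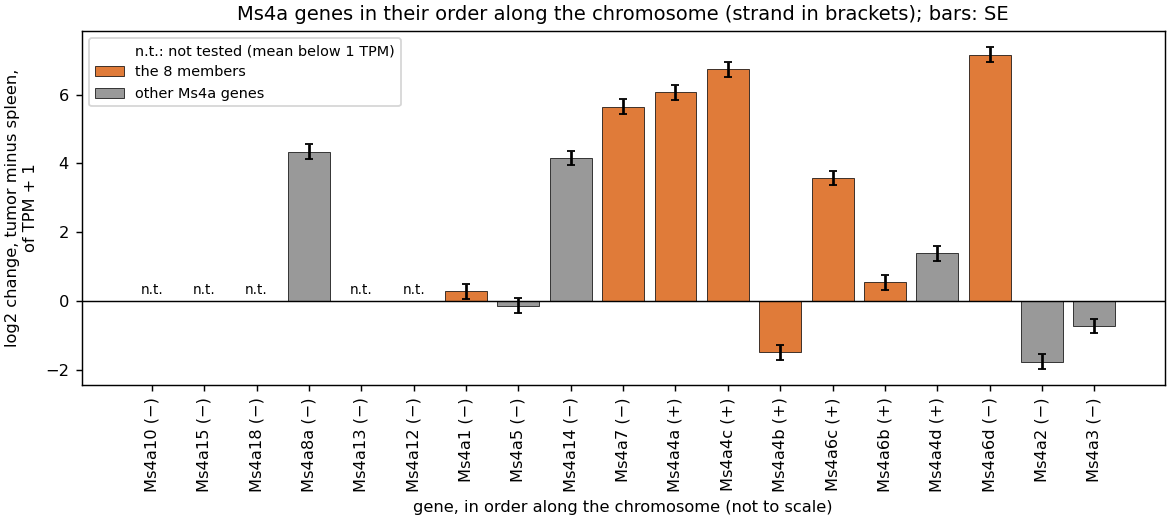
Log2 change of TPM + 1, tumor minus spleen, of the 19 listed Ms4a genes in their order along chromosome 19, with the SE from limma as bars, the strand in brackets and n.t. for genes not tested. Ms4a4b, at -1.49, stands between Ms4a4c at 6.74 and Ms4a6c at 3.59.

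Genes tied to the family by their proteins or by genetics were described by a list of 9, of which 8 had values here and 7 were tested. Of these 6 rose and 1 fell, beside 40.9% and 18.1% of all tested genes. Their median log2 change was 2.58, beside 0.23 for all tested genes. Fcer1g and Tyrobp, which encode signalling adaptors of immune receptors, stood at 1202 and 1312 TPM and at 747 and 828 TPM in tumor, against at most 1.96 and 3.34 TPM in spleen. Syk, the kinase that such adaptors recruit, reached 93.2 and 106.6 TPM in tumor against at most 0.966 TPM in spleen. Trem2, a lipid receptor of macrophages whose soluble form is linked to the MS4A locus in humans, was at 9.05 and 9.33 TPM in tumor and at 0.867, 0.52 and 0.76 TPM in spleen (log2 change 2.58, limma adjusted p = 5.71e-15). Trem2 was above the olfactory receptor background in tumor replicate 2 and below it in the other 4 libraries. Fcer1g, Tyrobp and Syk were above it in both tumor libraries and in no spleen library. Trem2 and Syk passed the filter only through tumor. The part of macrophage RNA in them was not tested.

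Tnfrsf18 encodes GITR, the receptor that MS4A4B binds. It stood at 47.7 and 32.3 TPM in tumor, against 15.6, 23.8 and 20.3 TPM in spleen, and rose by 0.97 ± 0.22 on the log2 scale (SE; limma adjusted p = 0.000174). Its call was lost with equal totals (limma adjusted p = 0.741), on the upper quartile (limma adjusted p = 0.217) and without tumor replicate 2 (0.69, limma adjusted p = 0.056). Orai1 and Stim1, the pore and the sensor of store-operated calcium entry, differed in direction: Orai1 rose by 0.77 and Stim1 fell by 0.77 on the log2 scale, at limma adjusted p-values of 0.00141 and 0.00143. The Orai1 call was lost without tumor replicate 3 (0.59, limma adjusted p = 0.0708) and on the upper quartile (0.15, limma adjusted p = 0.326), and Orai1 was at -0.057 with equal totals. Stim1 was at 1.24 when scaled on T cell identity genes. In the test against a 2-fold change, Tnfrsf18, Orai1 and Stim1 were not called.

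The genes with the most similar pattern were found by the mean absolute difference of log2(TPM + 1) over the 5 libraries, among 12959 tested genes. Nearest to Ms4a4b were Rpl36a (0.187), Smc4 (0.211) and Rpl14 (0.272), and nearest to Ms4a6b were Fau (0.184), Ptma (0.184) and Hnrnpk (0.266). Nearest to Ms4a4c were Ifrd1 (0.478), Rgs1 (0.487) and Ctsb (0.539), farther than for the other 4 members examined in this way. Sdcbp (0.205), Gapdh (0.247) and S100a4 (0.252) were nearest to Ms4a6c. Fcgr2b (0.186), an inhibitory Fc receptor, Lyn (0.255), a kinase of B and myeloid cells, and Ctsl (0.288), a lysosomal protease, were nearest to Ms4a7. These distances describe likeness of level in the same 5 libraries.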

How the data were processed

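The deposited files hold a value for each gene symbol, with 1 file per library. The values are taken as TPM made by the authors: they are not whole numbers, their sums differ between libraries and stay below the TPM ceiling, and kallisto, which writes TPM, is named with DESeq2 and build mm10 in the submitters' processing notes, without versions or roles. TPM keep no read depth, so precision from counting is not given. Being shares, TPM of one gene depend on those of all others.

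Values were tested as log2(TPM + 1) with limma 3.58.1 in R 4.3.3, for 12979 genes whose mean over the 5 libraries was 1 TPM or more. The model held tissue alone, the variance prior followed the mean, and two-sided p-values were adjusted by the Benjamini-Hochberg method over all tested genes. Calls needed an adjusted p below 0.05. Residual degrees of freedom were 3 and prior degrees of freedom 44.1. Named genes were all listed Ms4a symbols, the markers highest in each tissue, the genes tied to the family, the 3 nearest patterns of 5 members, and the largest called changes among neighbours within 500 kb of the cluster. Cd4, Ncr1, Klrb1c, Eomes, Prf1, S100a8, S100a9, Xcr1, Batf3, Cd53, Cd63, Cd37, Tmem176a and Tmem176b were named outside that rule, after their values were seen. Members and lists were chosen with earlier results of these data known. Alternatives were other pseudocounts, filters, scalings, thresholds, variance settings, a replicate block and each library left out. Coding identity (longest open reading frame of GENCODE transcripts, global alignment) took the place of a planned comparison of proteins. Coordinates are from GENCODE M21 (GRCm38), and upstream sequences from RefSeq (GRCm38.p6).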

Additional observations from a re-analysis of the deposited data

How the results depend on the processing

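Ms4a4a, Ms4a4c, Ms4a6c, Ms4a6d and Ms4a7 kept their direction and their call under all 17 alternatives, with log2 changes of 3.49 to 7.61, 5.83 to 8.79, 2.66 to 5.70, 5.87 to 9.12 and 4.35 to 7.58. The number of members that rose stayed between 5 and 8. Falls numbered 2 with equal totals, where Ms4a6b joined Ms4a4b, and 0 with scaling on T cell identity genes and in the test against a 2-fold change. With each library left out in turn, 5 to 6 members rose and 1 fell, while 4311 to 5894 of all genes rose and 1225 to 2609 fell, the fewest falls being without tumor replicate 2.

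Over all genes, 5309 rose and 2347 fell as deposited. Falls numbered 1456 at a mean of at least 5 TPM and 1552 at an adjusted p below 0.01. Rises and falls numbered 2697 and 6789 with equal totals, 3372 and 5797 by upper quartile, 12884 and 119 with T cell scaling, and 2199 and 274 against a 2-fold change. Rises made up 69.3% of calls as deposited, 28.4% with equal totals, 63.8% by median ratios, 36.8% by upper quartile, 99.1% with T cell scaling, 75.1% at a mean of at least 5 TPM, 88.9% against a 2-fold change and 79.3% without tumor replicate 2. The median log2 change of all genes was 0.23 as deposited, -0.56 with equal totals, -0.37 by upper quartile and 2.00 with T cell scaling.

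Signs turned with equal totals for Ms4a1 (-0.34), Ms4a6b (-0.39), Orai1 (-0.057), Fau (-0.57) and Ptma (-0.043). On the upper quartile they turned for Ms4a1 (-0.19), Ms4a6b (-0.16) and Fau (-0.33). When scaled on T cell identity genes, they turned for Ms4a4b (0.63), Ms4a3 (0.94), Ms4a5 (1.23), Stim1 (1.24), Rpl36a (0.82), Smc4 (0.44), Rpl14 (1.11), Cd2 (1.09), Cd3g (0.017), Cd4 (0.053), Cd5 (0.41), Cd6 (0.46), Ebf1 (1.68), Cd22 (1.58), Ccr7 (0.68), Cxcr2 (1.24), Cd37 (0.64) and Olfr1428 (1.11). Without tumor replicate 2 they turned for Ms4a5 and Ebf1, which ranged from -0.32 to 0.052 and from -0.58 to 0.14 over the libraries left out. The causes were not tested, apart from the T cell identity genes themselves, which that scaling levels by construction.

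The replicate numbers 2 and 3 are shared by tumor and spleen, but no label ties them to 1 mouse. The correlation of their deviations from the group means was 0.202 and 0.0661, and the numbers were not used to pair samples. With the replicate block, 5 members rose and 1 fell, Ms4a6b being at 0.37 (limma adjusted p = 0.173). Read depth is unknown, so the counting error of low values such as those of Ms4a1 is not known. With 2 tumor libraries, leaving out 1 assumes that the other varies as the spleen libraries do.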

Other observations

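Within 500 kb of the Ms4a cluster on both sides, 39 other genes were listed and 26 were tested. Of these 13 rose and 5 fell in tumor, which is 50% and 19.2%, near the 40.9% and 18.1% of all tested genes, with a median log2 change of 0.50 beside 0.23 for all tested genes. The largest rises were those of Slc15a3, a lysosomal transporter of peptides and histidine, Tmem132a and Stx3, a SNARE protein of membrane fusion. Slc15a3, which passed the filter only through tumor, stood at 189 and 192 TPM in tumor, against 0.657, 0.515 and 0.923 TPM in spleen (log2 change 6.82, limma adjusted p = 7.35e-32). Tmem132a, which likewise passed only through tumor, and Stx3 changed by 4.42 and 3.13 on the log2 scale. Cd5 and Cd6, T cell surface receptors whose genes lie on the same side of the cluster, changed by -1.64 and -1.57 on the log2 scale, and Olfr1428 by -0.89; all 3 turned positive when scaled on T cell identity genes. Cd6 stood at 14.5 and 10.2 TPM in tumor, against 32.0, 45.7 and 38.1 TPM in spleen.

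Of 9 other genes of proteins with the same membrane layout, all were tested, 7 rose and 2 fell, with a median log2 change of 1.36. Among all tested genes 40.9% rose and 18.1% fell, and the median was 0.23. Cd53, a tetraspanin of all leukocytes, stood at 868 and 770.4 TPM in tumor, against 222, 274 and 241 TPM in spleen. Cd63, a tetraspanin of lysosomes that passed the filter only through tumor, stood at 24.2 and 25.0 TPM in tumor and below 1 TPM in spleen, with a log2 change of 3.92 (limma adjusted p = 1.29e-21). Cd37, a tetraspanin of lymphocytes, stood at 11.6 and 10.3 TPM in tumor, against 23.1, 42.4 and 27.9 TPM in spleen, a log2 change of -1.38 (limma adjusted p = 4.88e-07) that turned to 0.64 when scaled on T cell identity genes. Tmem176a and Tmem176b, which are related to the Ms4a genes in sequence, rose by 1.36 and 2.20 on the log2 scale. Tmem176a was within the background, and Tmem176b stood at 11.0 and 13.9 TPM in tumor, above it, and at 2.28, 1.35 and 2.20 TPM in spleen.

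The counts for markers of further cell types stand beside the 40.9% and 18.1% of all tested genes that rose and fell. Of 8 conventional dendritic cell markers 6 were tested, 3 rose and 1 fell. The rises were those of Itgax, at 87.8 and 136 TPM in tumor, and of Xcr1 and Batf3, both within the background. Batf3 passed the filter only through tumor. Ccr7 fell, at 14.9 and 15.5 TPM in tumor, against 35.1, 49.3 and 39.1 TPM in spleen, above the background in every library. Of 8 neutrophil markers 5 were tested, 2 rose and 1 fell. The rises were those of Csf3r, at 53.1 and 57.8 TPM in tumor, and of S100a9, at 3.58 and 1.88 TPM, within the background. Both passed the filter only through tumor. Cxcr2 fell, at 6.72 and 11.7 TPM in tumor, against 18.8, 13.4 and 14.3 TPM in spleen. S100a8, at 2.57 and 0.432 TPM in tumor, was not called. Of 8 natural killer cell markers 6 were tested, 1 rose and 3 fell, the rise being that of Klrk1, at 106 and 111 TPM in tumor. The falls were those of Klrb1c, Eomes and Prf1, all within the background, and Klrb1c passed the filter only through spleen. Ncr1, on the natural killer cell list, was below 1 TPM in every library. Itgax is known from macrophages as well, and the part of each cell type in these values was not tested.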
